A study of Arabidopsis thaliana with 4 samples.

Results

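Cell wall acetylation and remodelling genes were examined in Arabidopsis inflorescence tips of the stomatal mutant tmm-1 and of the line Col-3 gl1. The genes were taken by symbol from the platform annotation of the ATH1 array, where a probe set stood for a single gene and its symbol began with 1 of 13 wall gene prefixes (TBL, GH9, XTH, EXPA, EXPB, PME, CSL, CESA, GAUT, GATL, IRX, FLA or AGP). The pectin lyase-like gene AT1G10640 was added by name. This gave 74 genes, each with 1 probe set, of 13356 genes with a probe set of their own. RefSeq lists 250 Arabidopsis genes with symbols of these prefixes, so most members of these families are not analysed here, among them all genes named CESA, GATL, FLA or AGP. The largest groups were 22 TBL genes, 15 GH9 genes, 10 EXPA genes, 9 XTH genes, 7 CSL genes and 4 EXPB genes. There were 2 pectin methylesterase genes, 2 IRX genes and 1 GAUT gene. The prefix PME also took PMEAMT, a phosphoethanolamine methyltransferase gene of membrane lipid synthesis and not a wall gene. It is counted among the 74 and described apart from the pectin methylesterases.

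The tmm-1 group held 2 arrays of the mutant, in which the stomatal patterning gene TMM, for a receptor-like protein, is affected. The Col-3 gl1 group held 2 arrays of a line with the gl1 mutation, which removes most leaf hairs. Its source label reads Col-3 gl1 and its titles spell the line differently, and whether the mutant carries gl1 too is not given. Plants of both lines were grown in a chamber at 22 °C, 70% humidity and 16 h of light per day, and tips were taken at growth stage 6.10. Each array held a pool of tips, numbered 1 or 2 in the labels, which serve as replicates 1 and 2. No label ties the pools to different plants, so the p-values may measure technical spread only. In tissue of mixed cells, fewer cells of a type and less RNA per cell cannot be told apart.

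The plant primary wall is a network of cellulose tied by xyloglucan and embedded in pectin, and growing cells loosen it while new polymers are laid down. Expansins (EXPA and EXPB) loosen the contact between cellulose and other polysaccharides, XTH enzymes cut and rejoin xyloglucan, and GH9 endoglucanases act on cellulose and related glucans. TBL proteins form a family of the Golgi, many of whose members are known to add acetyl groups to xylan, glucomannan, xyloglucan or pectin. CSL proteins make the backbones of matrix polysaccharides, GAUT proteins build pectin, pectin methylesterases remove methyl groups from it, and the lyase and polygalacturonase families cut it.

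Values are MAS5 signals in array units. The signal of a probe set depends on its probes, so levels are compared between lines and not between genes. The median signals of the tmm-1 arrays were 41.4 and 45.4, and those of the Col-3 gl1 arrays 40.8 and 40.7. Dim probe sets were brighter on tmm-1 replicate 2, whose 10th percentile was 3.07, than on the other 3 arrays, at 1.54 to 1.61. The 27 Bacillus control probe sets, which match no plant RNA, reached 21.2 at most, and this value served as a yardstick for background. The 3′ to 5′ ratio of an actin control, a sign of RNA quality, was 2.29 and 2.47 for tmm-1, against 2.25 and 2.39 for Col-3 gl1. Differences were tested with limma on log2(signal + 10) over all 16960 probe sets with a mean signal of at least 10, and a probe set was called at a Benjamini-Hochberg adjusted p below 0.05. This called 104 probe sets, 41 higher and 63 lower in tmm-1, or 0.613% of those tested. Leaving out tmm-1 replicate 1 gave 662 calls, and leaving out tmm-1 replicate 2 gave 167. The labelled tissue could not be checked well, since 2 of 15 listed meristem and flower genes had a named probe set, and these, CLV3 and UFO, had signals of 0.868 to 4.35 on the 4 arrays, all under 21.2.

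Of the 74 genes, 52 passed the signal filter and 22 did not. The filter lay between GH9A4, an endoglucanase gene with a mean signal of 9.94, and CSLA01, a glucomannan synthase family gene with 11.4. In 21 of the 22 untested genes all 4 signals were at or under 21.2, and the exception was TBL42, with 22.8 on tmm-1 replicate 2. Tested and untested genes were unevenly spread over the families. All CSL, EXPB, GAUT and pectin methylesterase genes were tested, as were AT1G10640 and PMEAMT, against 17 of 22 TBL, 9 of 15 GH9, 6 of 10 EXPA, 3 of 9 XTH and 1 of 2 IRX genes.

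**Figure D1:**
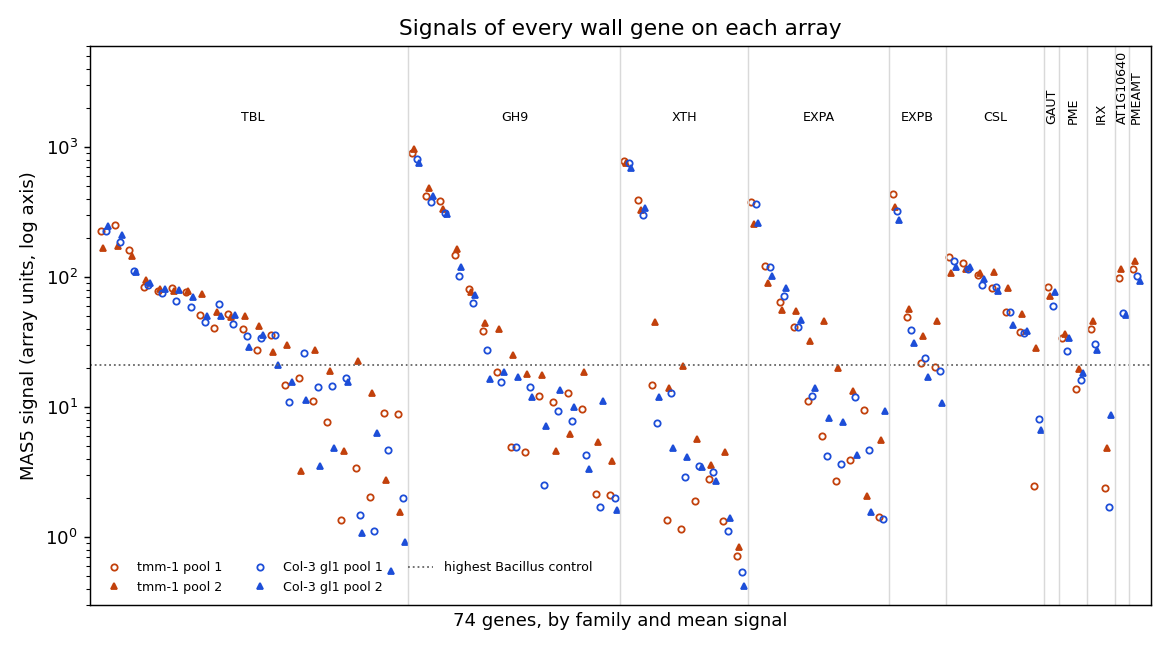
MAS5 signal (array units, log axis) of each of the 74 genes on the 2 tmm-1 and 2 Col-3 gl1 arrays, ordered within each family by mean signal. The dotted line is the highest Bacillus control signal, 21.2. Most XTH genes lie under it, and the GH9 genes lie on both sides of it.

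Among the 52 tested genes limma called 1, AT1G10640, which was higher in tmm-1, and it called none lower. Over all probe sets tested, 0.242% were called higher and 0.371% lower. AT1G10640 had signals of 98.5 and 116 in tmm-1, against 53.1 and 50.7 in Col-3 gl1. Both mutant arrays lay well above both control arrays, and the pools of each line lay close together. Its mean signal was 107 ± 12.6 in tmm-1 and 51.9 ± 1.70 in Col-3 gl1 (SD, n = 2 each), a ratio of 2.07. The log2 change was 0.92 ± 0.19 (SE, limma, adjusted p = 0.0126), and it ran from 0.81 to 1.03 when any single array was left out. The gene was not called without the signal filter (adjusted p = 0.330) or without the variance trend on intensity (adjusted p = 0.303). AT1G10640 was put on the list by name, with this result of the same arrays known, so its call is no independent support for the list.

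A further 7 genes had an unadjusted p below 0.05 and were not called, all with higher signal in tmm-1: GH9B8, TBL36, GH9C3, EXPB3, XTH33, EXPB5 and EXPB1. Together with AT1G10640 this made 8 of 52 higher and 0 of 52 lower, where 8.81% of all probe sets tested passed that threshold, 4.68% higher and 4.13% lower. AT1G10640 was listed with its result known. XTH33, with a Col-3 gl1 mean of 9.72, passed the signal filter only through its tmm-1 signals. The place of these genes in the count is no support for the list. With arrays scaled to a common median, 5 of 52 genes had an unadjusted limma p below 0.05, against 1559 of 16960 probe sets. All 5 were higher. Without the signal filter it was 9 of 74 genes, 8 higher and 1 lower, against 1638 of 22746 probe sets. The count also moved with an array left out, where a line was left with a single array and no spread of its own.

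**Figure D2:**
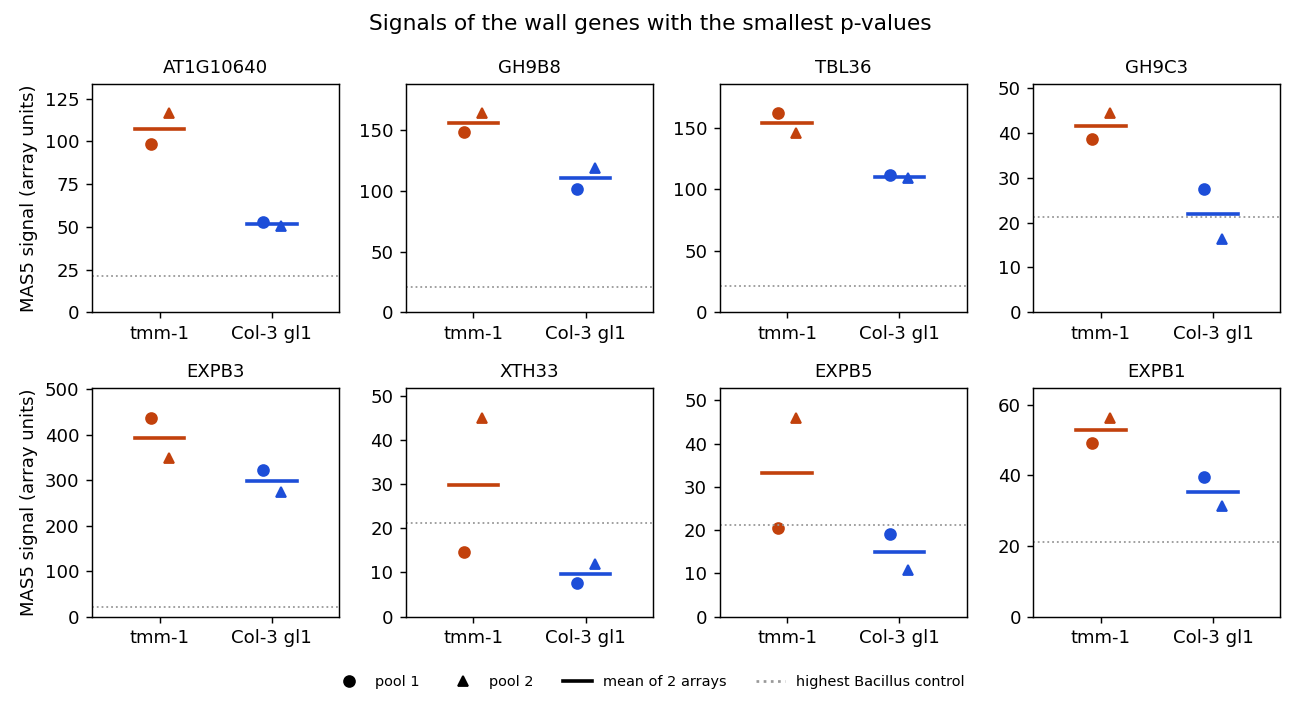
MAS5 signal (array units, linear axis from 0) of the 8 genes with an unadjusted p below 0.05, by line and pool, with bars at the means of 2 arrays and a dotted line at the highest Bacillus control signal, 21.2. In every panel both tmm-1 points lie above both Col-3 gl1 points, and in XTH33 and EXPB5 tmm-1 pool 2 stands apart.

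Of the 15 endoglucanase genes of the GH9 family, 9 were tested and 8 of these had a log2 change above 0, but none was called. Their log2 changes ran from -0.20 to 0.71 with a median of 0.22. GH9B8, which encodes a secreted enzyme of class B, had 149 and 164 in tmm-1, against 102 and 119 in Col-3 gl1. The lines did not overlap, and the log2 change was 0.47 ± 0.17 (SE, limma, adjusted p = 0.334). GH9C3, of the class that carries an added carbohydrate-binding module, had 38.6 and 44.3 in tmm-1, against 27.5 and 16.4 in Col-3 gl1. Both mutant signals were the higher ones, and 1 of the control signals was under the background yardstick. Its log2 change was 0.71 ± 0.27 (limma, adjusted p = 0.392).

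GH9B13, the GH9 probe set with the highest signal, had 904 and 972 in tmm-1, against 816 and 757 in Col-3 gl1. The pools of each line lay close together without overlap between lines, yet the difference was small, a log2 change of 0.25 ± 0.14 (SE, limma, adjusted p = 0.640) with a 95% interval of -0.04 to 0.54. GH9C2 and the membrane-anchored GH9A3, also known as KOR3, likewise had both tmm-1 signals above both control signals, at log2 changes of 0.22 and 0.20. GH9B7 overlapped between lines, at 419 and 487 in tmm-1 and 378 and 421 in Col-3 gl1. GH9C1 was the tested GH9 gene with a change below 0, and all its signals were under 21.2. The 6 untested GH9 genes were GH9A4, GH9B5, GH9B6, GH9B11, GH9B16 and GH9B17, with no signal above 18.6.

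Of the families with at least 3 tested genes, the beta-expansins had the highest median log2 change, 0.43 over 4 genes, and all 4 changes were above 0, from 0.33 to 0.75. None was called. EXPB3 had 437 and 348 in tmm-1, against 321 and 273 in Col-3 gl1. The tmm-1 signals differed from each other by more than the nearest tmm-1 and control signals did, and the log2 change was 0.39 ± 0.16 (SE, limma, adjusted p = 0.438). EXPB1 had 49.3 and 56.4 in tmm-1, against 39.5 and 31.3 in Col-3 gl1, with no overlap and a log2 change of 0.47 ± 0.23 (limma, adjusted p = 0.552). EXPB5 had 20.4 and 46.0 in tmm-1, against 19.1 and 10.8 in Col-3 gl1. Of these 4 signals, tmm-1 replicate 2 alone was above 21.2, so no ratio of signals is given, and the log2 change depends on the pseudocount, at 1.04 with a pseudocount of 1 and 0.57 with 20. With the pseudocount of 10 it was 0.75 ± 0.34 (limma, adjusted p = 0.532), and it dropped to 0.31 in the fit lacking tmm-1 replicate 2. In the fit lacking tmm-1 replicate 1 it was 1.19. EXPB2 overlapped between lines, at 21.7 and 35.4 in tmm-1 and 23.8 and 16.9 in Col-3 gl1.

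The alpha-expansins showed no common direction. Of 6 tested EXPA genes, 4 had a log2 change above 0 and 2 below, with a median of 0.06 that turned to -0.02 with arrays scaled to a common median, to -0.03 with a mean signal of at least 30, to -0.06 in the fit lacking tmm-1 replicate 2 and to -0.0020 in the fit lacking Col-3 gl1 replicate 2. EXPA4 had 380 and 255 in tmm-1, against 366 and 262 in Col-3 gl1. In both lines pool 1 was the higher, and the lines overlapped almost wholly, with a log2 change of 0.01 ± 0.18 (SE, limma, adjusted p = 0.994) and a 95% interval of -0.36 to 0.38. EXPA20 was the 1 tested gene of all 52 with both tmm-1 signals below both control signals, at 64.3 and 55.8 in tmm-1, against 71.8 and 83.0 in Col-3 gl1. Its log2 change was -0.32 ± 0.19 (limma, adjusted p = 0.682). EXPA18, known from root hairs, had 5.96 and 46.3 in tmm-1, against 4.21 and 8.27 in Col-3 gl1. A single array, tmm-1 replicate 2, stood above 21.2, and the log2 change of 0.90 ± 0.50 (limma, adjusted p = 0.640) became 1.39 with a pseudocount of 1 and 0.67 with 20. It was 1.81 in the fit lacking tmm-1 replicate 1. In the fit lacking tmm-1 replicate 2 the gene was under the filter. EXPA7, the other expansin known from root hairs, and EXPA8, EXPA21 and EXPA24 were untested, with no signal above 20.02.

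Of the 9 XTH genes, 3 were tested and none was called. XTH32 had 779 and 756 in tmm-1, against 756 and 690 in Col-3 gl1, a log2 change of 0.09 ± 0.14 (SE, limma, adjusted p = 0.914) with a 95% interval of -0.20 to 0.38. XTH16 had 395 and 330 in tmm-1, against 300 and 338 in Col-3 gl1. Both genes overlapped between lines, and the change of XTH32 was -0.0014 with arrays scaled to a common median. XTH33, whose protein is held at the plasma membrane, had 14.7 and 45.1 in tmm-1, against 7.58 and 11.9 in Col-3 gl1. Its tmm-1 pools lay far apart, and tmm-1 replicate 2 alone was above 21.2. The log2 change was 0.91 ± 0.39 (limma, adjusted p = 0.487), and became 1.36 with a pseudocount of 1 and 0.68 with 20. It was 0.34 in the fit lacking tmm-1 replicate 2 and 1.49 in the fit lacking tmm-1 replicate 1. The untested genes were XTH18, XTH19, XTH20, XTH21, XTH26 and XTH29. XTH18, XTH19, XTH20, XTH21 and XTH26 are best known from roots. In all 6 untested XTH genes tmm-1 replicate 2 gave the highest of the 4 signals, up to 20.8 for XTH29, as it did in 50.4% of all untested probe sets.

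The TBL acetyltransferases had a median log2 change of 0.12 over 17 tested genes, with 13 changes above 0 and 4 below. The changes below 0 were those of TBL26, TBL38, TBL43 and TBL45. Those of TBL18, TBL25, TBL32 and TBL39, all above 0, fell below 0 after quantile normalization or scaling to a common median. None of the 17 genes was called. The median was 0.02 in the fit lacking Col-3 gl1 replicate 1. In the fit lacking tmm-1 replicate 2, 15 of the 17 genes were still tested and 9 of their changes were above 0. TBL30, not among the 17, passed the filter in that fit, with a log2 change of -1.21. TBL36 had 162 and 146 in tmm-1, against 112 and 109 in Col-3 gl1. The lines did not overlap, and the log2 change was 0.44 ± 0.17 (SE, limma, adjusted p = 0.374), or 0.37 to 0.51 with any single array left out. TBL45, the TBL probe set with the highest signal, had 227 and 167 in tmm-1, against 226 and 247 in Col-3 gl1. The lines overlapped, tmm-1 replicate 2 was the lowest array, and the log2 change was -0.26 ± 0.17 (limma, adjusted p = 0.707). It was -0.05 in the fit lacking tmm-1 replicate 2 and -0.47 in the fit lacking tmm-1 replicate 1. In TBL39 the mutant pools lay on either side of both control pools, at 252 and 173 in tmm-1 and 187 and 209 in Col-3 gl1.

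Grouped by the polymer they are known to acetylate, the xylan group (TBL28, TBL30, TBL32, TBL34 and TBL35) had 4 tested genes, all with log2 changes above 0, from 0.12 to 0.45, though that of TBL32 turned below 0 after quantile normalization. TBL28 had 40.1 and 50.6 in tmm-1, against 35.5 and 29.1 in Col-3 gl1, without overlap and with a log2 change of 0.38 ± 0.24 (SE, limma, adjusted p = 0.694). TBL34, at 14.8 and 30.2 in tmm-1 and 11.03 and 15.6 in Col-3 gl1, TBL32 and TBL35 overlapped between lines. In TBL34 tmm-1 replicate 2 alone was above 21.2, and the log2 change of 0.45 was 0.10 in the fit lacking that array. The change of TBL32 was -0.05 in the fit lacking tmm-1 replicate 1 and -0.16 in the fit lacking Col-3 gl1 replicate 2. It stayed above 0 in the other fits with an array left out. The suffix of the TBL32 probe set, s_at, marks probes that match several transcripts, so its signal may not be of TBL32 alone. TBL30 was untested. It had 1.35 and 4.63 in tmm-1, against 16.8 and 15.6 in Col-3 gl1, so the mutant signals lay below both control signals, but all 4 were under 21.2. In the fits lacking tmm-1 replicate 1 or replicate 2 it passed the filter through its Col-3 gl1 signals, with log2 changes of -0.84 and -1.21. The glucomannan group (TBL23, TBL25 and TBL26) ran from -0.20 to 0.24 on the log2 scale. TBL23 had 76.3 and 78.8 in tmm-1, against 58.6 and 70.3 in Col-3 gl1, while TBL26 had 40.6 and 54.1 in tmm-1 and 61.9 and 49.9 in Col-3 gl1.

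All 7 CSL genes were tested, 6 with a log2 change above 0, none called, with a median of 0.19 that ran from 0.13 to 0.37 with an array left out, the highest being the fit lacking tmm-1 replicate 1. The 4 CSLC genes, of the family that makes the xyloglucan backbone, were CSLC04, CSLC5, CSLC6 and CSLC12. CSLC12 had 54.2 and 82.5 in tmm-1, against 53.7 and 42.9 in Col-3 gl1. The mutant pools lay apart, the lower only just above the control, and the log2 change of 0.41 ± 0.22 (SE, limma, adjusted p = 0.628) was 0.14 without tmm-1 replicate 2. CSLC6 had 83.0 and 109 in tmm-1, against 83.9 and 78.4 in Col-3 gl1. CSLC5 had 144 and 107 in tmm-1, against 133 and 120 in Col-3 gl1, with a log2 change of -0.02 ± 0.18 and a 95% interval of -0.39 to 0.34. The control signals of CSLC5 lay inside the range of the mutant signals. CSLC04, at 103 and 108 in tmm-1 and 86.5 and 96.9 in Col-3 gl1, did not overlap and had a log2 change of 0.18. CSLD2, a gene of the cellulose synthase-like D group known from root hair growth, was at 0.05 and turned sign with arrays scaled to a common median. The glucomannan synthase family genes CSLA01 and CSLA03 were at 0.33 and 0.19, with tmm-1 replicate 2 the highest array in both. In the fit lacking that array CSLA03 was at 0.0033 and CSLA01 was under the filter. CSLA01 had 2.45 and 28.5 in tmm-1, against 8.14 and 6.63 in Col-3 gl1, so 1 of its 4 signals was above 21.2.

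Among genes of pectin and xylan in the smaller families, none was called. The pectin methylesterase gene PMEPCRF had 34.3 and 36.8 in tmm-1, against 26.9 and 33.9 in Col-3 gl1, a log2 change of 0.18 ± 0.26 (SE, limma, adjusted p = 0.904). PME61, a further pectin methylesterase gene, stayed at or under 21.2 on all arrays, with 13.8 and 19.6 in tmm-1 and 16.3 and 18.2 in Col-3 gl1. GAUT15, of the galacturonosyltransferase family, had 84.3 and 71.9 in tmm-1, against 60.3 and 77.2 in Col-3 gl1. The lines of both PME61 and GAUT15 overlapped. IRX15-L, needed with IRX15 for normal xylan of secondary walls, had 39.9 and 45.9 in tmm-1, against 30.3 and 27.3 in Col-3 gl1. These did not overlap, and the log2 change was 0.45 ± 0.25 (limma, adjusted p = 0.639). IRX15 itself was untested, at 2.37 and 4.87 in tmm-1 and 1.71 and 8.62 in Col-3 gl1. The lipid gene PMEAMT had 116 and 133 in tmm-1, against 102 and 93.1 in Col-3 gl1, a log2 change of 0.32 ± 0.17 (limma, adjusted p = 0.637).

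**Figure D3:**
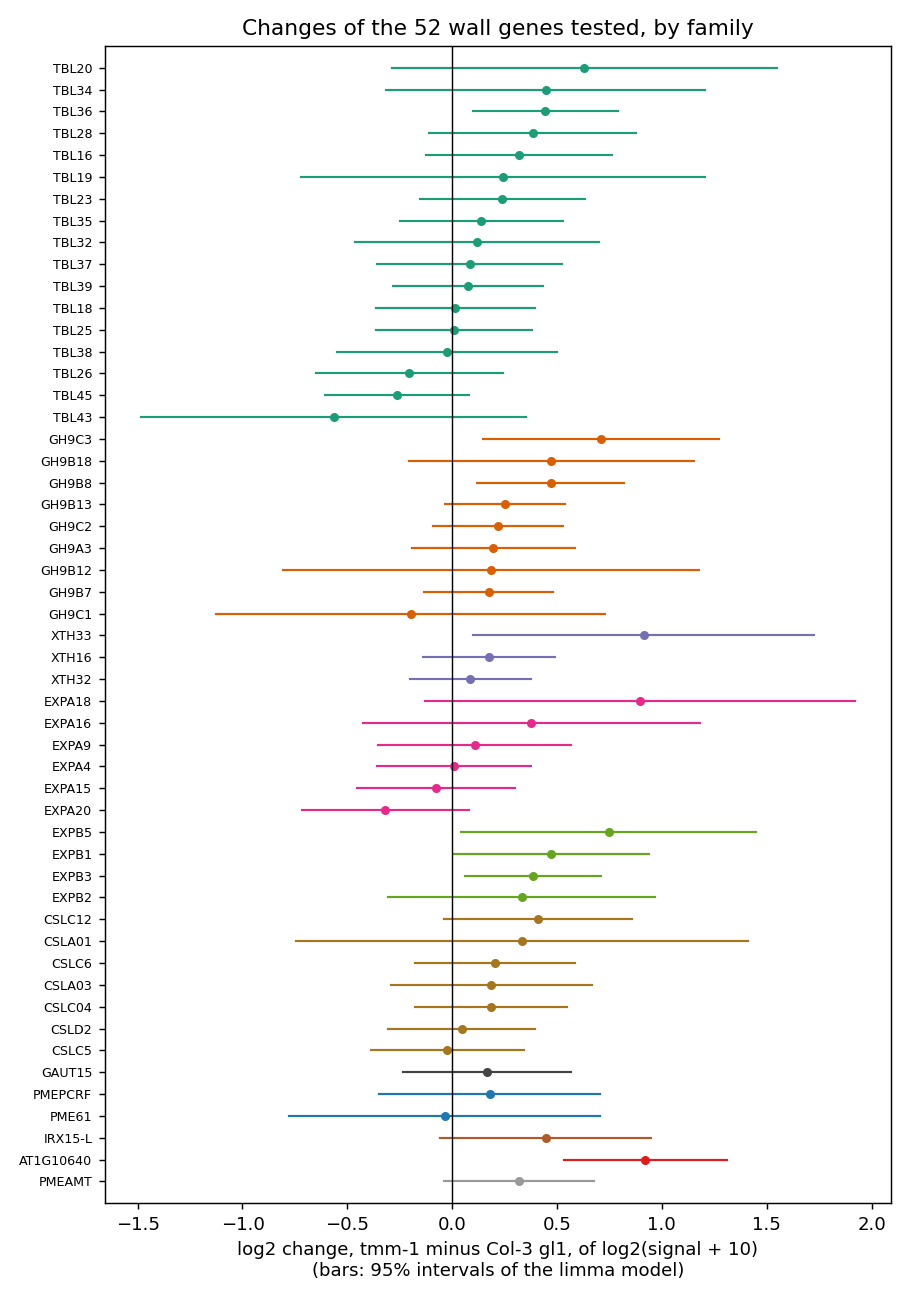
Log2 change of log2(signal + 10), tmm-1 minus Col-3 gl1, of the 52 genes tested, with 95% intervals of the limma model, grouped by family. Most points lie right of 0 and 44 of the 52 intervals include 0. AT1G10640 has the interval farthest from 0, at 0.53 to 1.31.

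Over the whole set, 43 of the 52 tested genes (82.7%) had a log2 change above 0, against 55% of all probe sets tested, and the median log2 change was 0.19 against 0.03. Both tmm-1 signals lay above both Col-3 gl1 signals in 19 of the 52 genes and below them in 1, where the shares over all probe sets were 21.5% and 16.8%. These are descriptions of a list chosen with results of these arrays known, and genes on the same arrays are not independent. The filter was set on the mean of all 4 arrays, so 5 of the 52 (CSLA01, EXPA18, TBL19, TBL20 and XTH33) had a Col-3 gl1 mean under 10 and passed only through their tmm-1 signals, and all 5 changes were above 0. TBL43, with a tmm-1 mean of 9.95, passed only through Col-3 gl1 and was below 0. In a count added after seeing the data, of the 46 genes with both means at or above 10, 38 (82.6%) were above 0, against 54.2% of all probe sets with both means at or above 10. Over all 74 genes, without the filter, 59 (79.7%) were above 0, against 58.1% of all probe sets, with medians of 0.19 and 0.05. By family, the median log2 change was 0.43 for EXPB, 0.22 for GH9, 0.19 for CSL, 0.18 for XTH, 0.12 for TBL and 0.06 for EXPA, the last of which turned sign as given above.

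The share above 0 was set beside the raised dim end of tmm-1 replicate 2. That array gave the highest of the 4 signals in 32 of the 52 tested genes (61.5%), against 35.3% of all probe sets tested. Without it, 37 of 50 genes (74%) had a log2 change above 0, against 51.9% of all probe sets, with medians of 0.14 and 0.01. Those 50 hold 47 of the 52 genes, 36 of them above 0, and genes that were under the filter with all 4 arrays. With arrays scaled to a common median, 37 of 52 genes (71.2%) were above 0, against 42.1% of all probe sets, with medians of 0.12 and -0.05. By signal, the genes with a mean of 10 to under 30 had 12 of 15 changes above 0 with a median of 0.33, where all probe sets of that range had 64.1% and 0.14, and these 15 hold the 5 that passed only through tmm-1. Those with a mean of 30 to under 100 had 19 of 22 with a median of 0.19, against 57.7% and 0.04. Those with a mean of at least 100 had 12 of 15 with a median of 0.17, against 46.9% and -0.01. Array tmm-1 replicate 2 was the highest in 86.7%, 68.2% and 26.7% of the genes from the dimmest to the brightest range, against 49.9%, 38.8% and 23.2% of all probe sets. Without it, 47 of the 52 genes were still tested. Of these, 6 of 10 changes were above 0 in the dimmest range, with a median of 0.07 against 0.05 for all probe sets. In the middle range 16 of 22 were above 0, with a median of 0.14 against 0.0054, and in the brightest 14 of 15, with a median of 0.22 against 0.0035. Why the changes leaned one way was not tested.

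**Figure D4:**
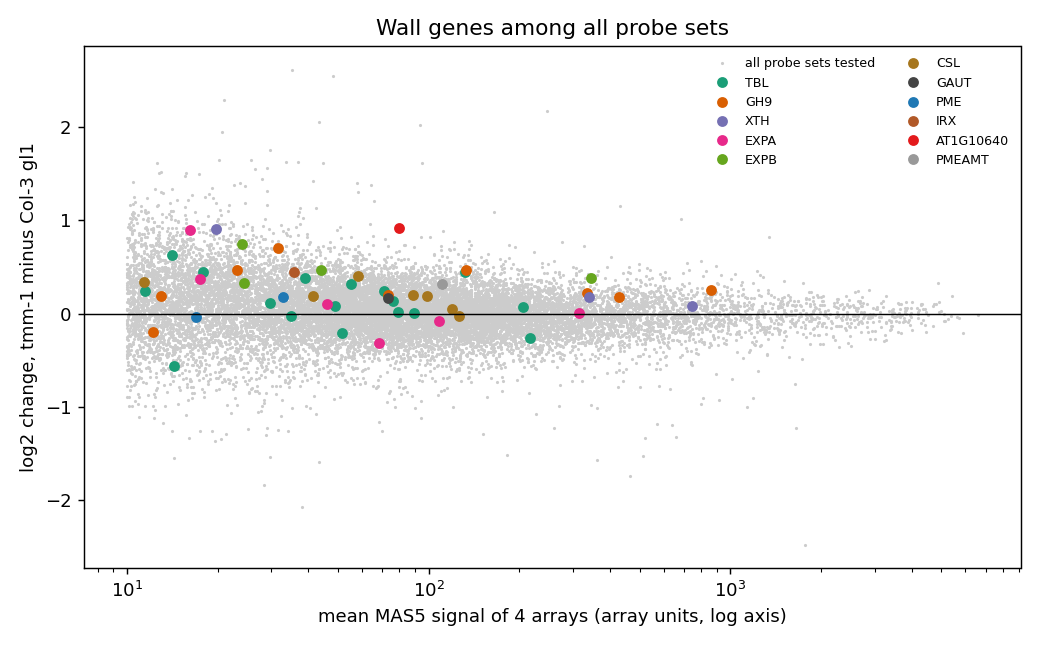
Log2 change, tmm-1 minus Col-3 gl1, against mean MAS5 signal of 4 arrays (log axis), for all 16960 probe sets tested (grey) and the 52 genes (coloured by family). The coloured points lie mostly above 0 and within the grey cloud, and AT1G10640 lies at its upper edge at 0.92.

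**Figure D5:**
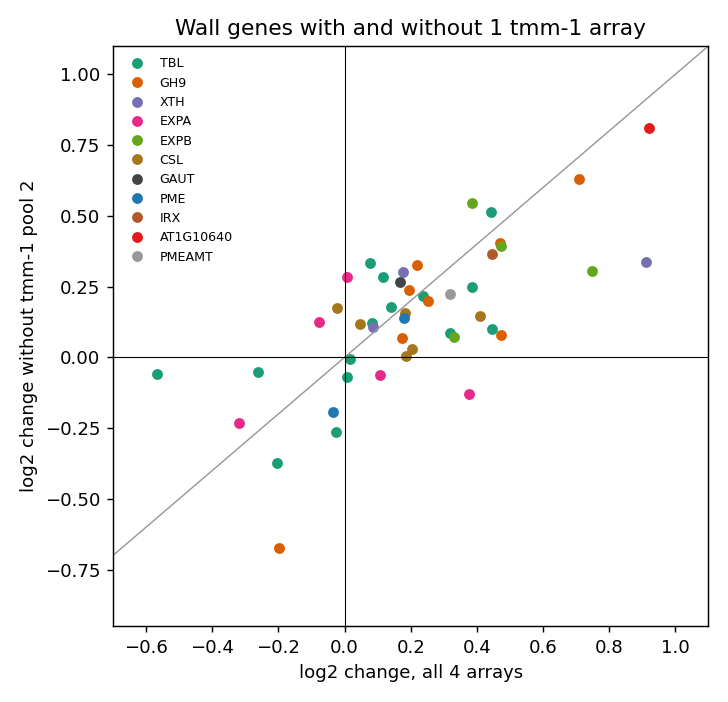
Log2 change, tmm-1 minus Col-3 gl1, without tmm-1 pool 2 against the change with all 4 arrays, for genes tested both ways, with the line of equal values. Several genes fall well below the line, among them XTH33, EXPB5, EXPA16 and GH9C1, at 0.34, 0.31, -0.13 and -0.67. Others lie above it, such as TBL43 at -0.06, and AT1G10640 stays near it at 0.81.

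Several of the genes lie next to each other in the genome, which the symbols did not use, by the gene order of assembly TAIR10.1. TBL28 and TBL30 are direct neighbours, as are TBL21 and TBL19, GH9B11 and GH9B12, XTH18 and XTH19, and the run of GH9B16, GH9B17 and GH9B18. TBL28 had the higher signals in tmm-1 and TBL30 the lower ones, as given above, though TBL30 was under the background yardstick. In the GH9B run, GH9B18 reached the filter, with 18.7 and 39.6 in tmm-1, against 15.7 and 18.8 in Col-3 gl1. Its signal on tmm-1 replicate 2 alone was above 21.2, and the log2 change of 0.47 was 0.08 in the fit lacking that array. GH9B16 stayed between 1.62 and 3.83 and GH9B17 between 4.57 and 13.5 on the 4 arrays. XTH18 and XTH19 were both dim, between 1.90 and 5.70.

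Wall genes outside the prefixes were taken from a list of 33, of which 6 had a named probe set and 5 were tested. None was called, 1 had an unadjusted p below 0.05, and 2 of the 5 log2 changes were above 0, with a median of -0.04. The receptor kinase gene FER (AT3G51550), whose protein senses the state of the wall, had 206 and 143 in tmm-1, against 314 and 212 in Col-3 gl1. Pool 1 was the higher in both lines, and the mutant signals lay below both control signals, with a log2 change of -0.56 ± 0.19 (SE, limma, adjusted p = 0.257). COB (AT5G60920), needed for oriented cellulose deposition, had 340 and 316 in tmm-1, against 387 and 325 in Col-3 gl1, a log2 change of -0.11 ± 0.15 (limma, adjusted p = 0.896). AXY9, THE1 and PGX3 overlapped between lines, and ADPG1 was under the filter. For other cell types that use the same families, 2 of 11 tapetum and 4 of 10 late pollen genes had a named probe set. The tapetum genes A9 and AMS had summed signals of 3.77 and 15.6 in tmm-1, against 2.14 and 17.3 in Col-3 gl1. All signals of A9 and AMS were under the yardstick of 21.2, and both genes were untested. The pollen genes summed to 88.4 and 108 in tmm-1, against 114 and 115 in Col-3 gl1, most of it from the tubulin gene TUA1, at 81.9 and 84.5 in tmm-1 and 102 and 101 in Col-3 gl1 (log2 change -0.26 ± 0.18, limma, adjusted p = 0.739). ACT12 and MGH3, at no more than 7.64, were under the yardstick, as was AGL66, with 2.04 and 13.9 in tmm-1 and 4.64 and 10.2 in Col-3 gl1. The 11 listed xylem genes are not analysed here. The part of cell makeup in the values of the wall genes was not tested.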

How the data were processed

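The deposited intensity values are linear MAS5 signals. MAS5 and GCOS are the tools given by the submitters' processing notes, and MAS5 reduces each probe set to 1 background-corrected signal. The 2% trimmed mean was 100 on each array, so no further scaling was applied. Such scaling hides any overall difference in RNA content. Detection calls were not used. The 22810 probe sets held 64 array controls, which were left out. Signals were put on the scale log2(signal + 10), so fold changes of dim genes are understated. Limma 3.58.1 (R 4.3.3) then compared the lines over probe sets with a mean signal of at least 10, with lmFit and an intensity trend in eBayes, two-sided and with Benjamini-Hochberg adjustment over 16960 probe sets. The model had 23.6 prior degrees of freedom, so the variance trend over all probe sets weighs most in the p-values. The number of arrays limits the precision, and the smallest two-sided p of an exact permutation test at this size is 0.33. Simulated arrays of this comparison had 16960 probe sets, 200 of them changed. Limma found 57% of the log2 changes of size 1 and 86% of those of size 2, with 8 false calls among 151. The noise was drawn from the variances limma had fitted, independently for each probe set and with no array raised at its dim end. The number of false calls on the real arrays therefore cannot be read from it.

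Gene names came from the platform annotation, joined through Entrez gene IDs to RefSeq genes of assembly TAIR10.1. All 74 genes matched a locus. The annotation gave 13513 probe sets a single symbol and 503 several, and did not list 8730. Named genes were AT1G10640, all genes with an unadjusted p below 0.05, and in each family the probe set with the highest signal and the 2 genes with the smallest p, or all genes of a family of 3 or fewer. Any further gene was named with its values already known. The genes and lists were chosen with earlier results of these data known. Alternatives were other pseudocounts (1 and 20), scaling to the median, quantile normalization, a higher signal filter (30) or none, no intensity trend, robust variances, a block for the pool number, and leaving out each array.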

Additional observations from a re-analysis of the deposited data

How the results depend on the processing

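The 104 calls became 69 after quantile normalization (22 higher), 17 without the signal filter, 0 without the intensity trend (limma, where 1293 had an unadjusted p below 0.05) and 162 at an adjusted p below 0.1, and ran from 77 to 662 with an array left out. Scaling to a common median gave 111, of which 31 were higher, against 41 of 104. The single call among the wall genes became 0 without the filter and 0 without the trend (limma, 7 wall genes at an unadjusted p below 0.05), where AT1G10640 kept its log2 change of 0.92, and ran from 1 to 4 with an array left out, when the lone sample's spread was taken from the other line. The 4 were AT1G10640, EXPA18, EXPB5 and XTH33, without tmm-1 replicate 1. Wall genes at an unadjusted p below 0.05 numbered 5 with arrays scaled to a common median, 5 with a mean signal of at least 30, and 3 to 17 with an array left out. Of the 52 wall genes tested, 17 turned sign in at least 1 alternative, none of them called, 16 with an array left out. Those 17 include 4 genes named by the rule, EXPA4 (-0.077 scaled to a common median, -0.27 to 0.29 with an array left out), XTH32 (-0.0014 scaled), PME61 (-0.19 to 0.12) and CSLC5 (-0.22 to 0.17). The median of the EXPA genes turned to -0.03 with a mean signal of at least 30. The cause was not tested. A replicate block for the pool number gave 191 calls in limma, and among the wall genes again AT1G10640 alone. Deviations of same-numbered pools correlated at 0.032 across probe sets, and the labels do not say that the number marks a shared day. Each gene had 1 probe set, so averaging over probe sets changed nothing. Signals at or under 21.2 cannot be told from background here.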

Other observations

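Probe sets that match 2 expansin or endoglucanase genes were left out of the 74 genes. EXP26 and EXPA22 shared a probe set with signals of 2.22 and 1.41 in tmm-1, against 1.40 and 1.64 in Col-3 gl1. EXPA25 and EXPA23 shared one with 2.02 and 2.30 in tmm-1, against 1.69 and 1.43 in Col-3 gl1. GH9B15 and GH9B14 shared one with 7.46 and 8.58 in tmm-1, against 9.84 and 7.67 in Col-3 gl1, and GH9B10 and GH9B9 one with 10.8 and 7.17 in tmm-1, against 10.6 and 8.62 in Col-3 gl1. All of these signals were under 21.2, and none of these probe sets passed the filter.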
